A study of Mus musculus with 10 samples.

Results

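The Skint gene cluster of mouse chromosome 4 was described as the 161 array probes that start between 111500000 and 114050000 on mm9, out of 170305 probes in all. The stretch was chosen by its log2 ratios of animal over pooled DNA, which differed widely between the 10 animals, so the levels given here are descriptions without tests. The median range from the lowest to the highest animal was 1.93 per cluster probe, beside 0.326 over 161299 other autosomal probes, and this difference was part of the choice. The window's first probe (111501058 to 111501117) lay between -0.13 and 0.20 over the animals and its last probe (114035830 to 114035889) between -0.0041 and 0.27. The nearest probes outside lay between -0.10 and 0.23 on the proximal side and between -0.40 and -0.0084 on the distal side.

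Skint genes encode butyrophilin-like membrane proteins of the immunoglobulin superfamily and are known from thymic epithelium and skin. Skint1, the founding member, is needed in mice for the selection of the γδ T cells that populate the epidermis. The genes stand in a row of related copies, and families of this kind are places where inbred strains and individuals can differ in copy number. In the RefSeq gene table of GRCm38.p6 the family has 11 members on chromosome 4, in the order Skint8, Skint7, Skint1, Skint4, Skint3, Skint9, Skint2, Skint10, Skint6, Skint5 and Skint11. No other protein-coding gene stood between them. The neighbours were Slc5a9, a sodium-coupled sugar transporter, on one side and Trabd2b, a membrane protease that acts on Wnt proteins, on the other. The 9 members named for the cluster (Skint1, Skint2, Skint3, Skint4, Skint5, Skint6, Skint9, Skint10 and Skint11) were all in that table. The probes carry positions on mm9 and no gene names, so the values below belong to stretches of the cluster and were not assigned to single Skint genes.

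Likeness between members of the family was measured in the promoter windows that RefSeq gives for GRCm38.p6. These run from 250 bases before to 50 bases after a gene's start. Over the 55 pairs among the 11 genes the median identity in a global alignment was 48.0%, and the highest was 89.7%, for Skint5 and Skint6. No unrelated windows were aligned, so the median does not by itself show relatedness. The Skint5 and Skint6 windows are printed to show how alike neighbouring copies can be. Whether probes of the cluster read more than 1 copy of the family was not tested. Both are on the minus strand, at chr4:113999454-113999753 for Skint5 and at chr4:113286924-113287223 for Skint6. These are positions on GRCm38.p6 and cannot be set against the mm9 positions of the probes. Capitals mark the longest run of identical bases, 30 bases long.
Skint5: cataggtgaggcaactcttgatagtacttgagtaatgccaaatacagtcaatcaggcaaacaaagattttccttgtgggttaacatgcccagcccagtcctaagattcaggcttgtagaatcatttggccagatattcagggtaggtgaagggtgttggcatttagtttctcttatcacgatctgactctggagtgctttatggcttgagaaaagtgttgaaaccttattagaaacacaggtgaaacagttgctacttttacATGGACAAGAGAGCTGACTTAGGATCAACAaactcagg
Skint6: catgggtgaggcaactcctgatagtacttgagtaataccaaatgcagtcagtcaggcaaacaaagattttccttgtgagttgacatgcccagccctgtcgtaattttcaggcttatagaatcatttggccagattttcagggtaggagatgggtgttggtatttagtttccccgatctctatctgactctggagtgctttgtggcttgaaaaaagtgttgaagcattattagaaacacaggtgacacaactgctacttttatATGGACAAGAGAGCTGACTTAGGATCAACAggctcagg
The next most alike pair, Skint10 and Skint11, had 60.3% identity and a longest identical run of 20 bases. The longest run shared by any pair was 51 bases, between Skint7 and Skint8, while the cluster's probes were 49 to 60 bases long.

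Each of the 10 arrays compared the liver DNA of 1 mouse (Cy5) with a common DNA pool (Cy3). The 5 ICSI-derived animals were ZFLacZ transgenic progeny obtained by injecting sperm into oocytes, starting from testis cells that had been frozen for 14 years. Their sperm came from ZFLacZ mice, a line first made on SJL x C57BL/6, and their oocytes from DBA x C57BL/6 females. The 5 naturally born animals were labelled as ZFLacZ progeny born naturally, with no cross given. The growth note, which speaks of progeny from frozen germ cells, stands on their labels too, and the groups here follow the source and strain labels. Age is given only as adult. Each group had replicates 1 to 3 labelled male and replicates 4 and 5 labelled female. C57BL/6, SJL and DBA mice contributed equally to the pool, so a log2 ratio of 0 means as much signal as from this mixture of 3 strains, not a known number of copies. Oocyte strain and the use of frozen cells and injection cannot be told apart between the groups.

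The arrays lay on 3 slides, with ICSI-derived replicates 1 and 2 and naturally born replicates 1 and 2 on slide 1, replicates 3 and 4 of each group on slide 2 and replicate 5 of each group on slide 3. At least 173864 of an array's 174305 spots were well above background in Cy5 and Cy3 alike, and precision is limited by how many arrays there are. By the headers' measure of the spread between neighbouring probes, the noisiest arrays were those of ICSI-derived replicates 4 (0.208) and 1 (0.201) and of naturally born replicate 2 (0.173), while the rest had 0.140 to 0.151. On chromosome X the 4 animals labelled female averaged 0.26 to 0.28 and 5 of the labelled males -0.61 to -0.55. Naturally born replicate 3, labelled male, was at -0.033 and so belonged to neither set. On chromosome 4 it is described under its label, and ranges of the lowest level and group differences are also given without it.

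Along the cluster the animals fell into 3 levels, and both groups contributed to the lower 2 of them. ICSI-derived replicate 1 carried more signal than the pool, ICSI-derived replicate 4 and naturally born replicates 1 and 2 somewhat more, and the other 6 animals, 3 of each group, much less. The breakpoints of ICSI-derived replicate 1 cut the window into 6 blocks, which were used for all animals. A proximal flank of 20 probes (111501058 to 111718240) is followed by a proximal block of 39 probes (111726014 to 112273763, 548 kb). An inner block of 14 probes (112289418 to 112460956) separates it from a central block of 54 probes (112470276 to 113251939, 782 kb). A distal block of 19 probes (113266186 to 113574763) and a distal flank of 15 probes (113590673 to 114035889) complete the window.

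**Figure D1:**
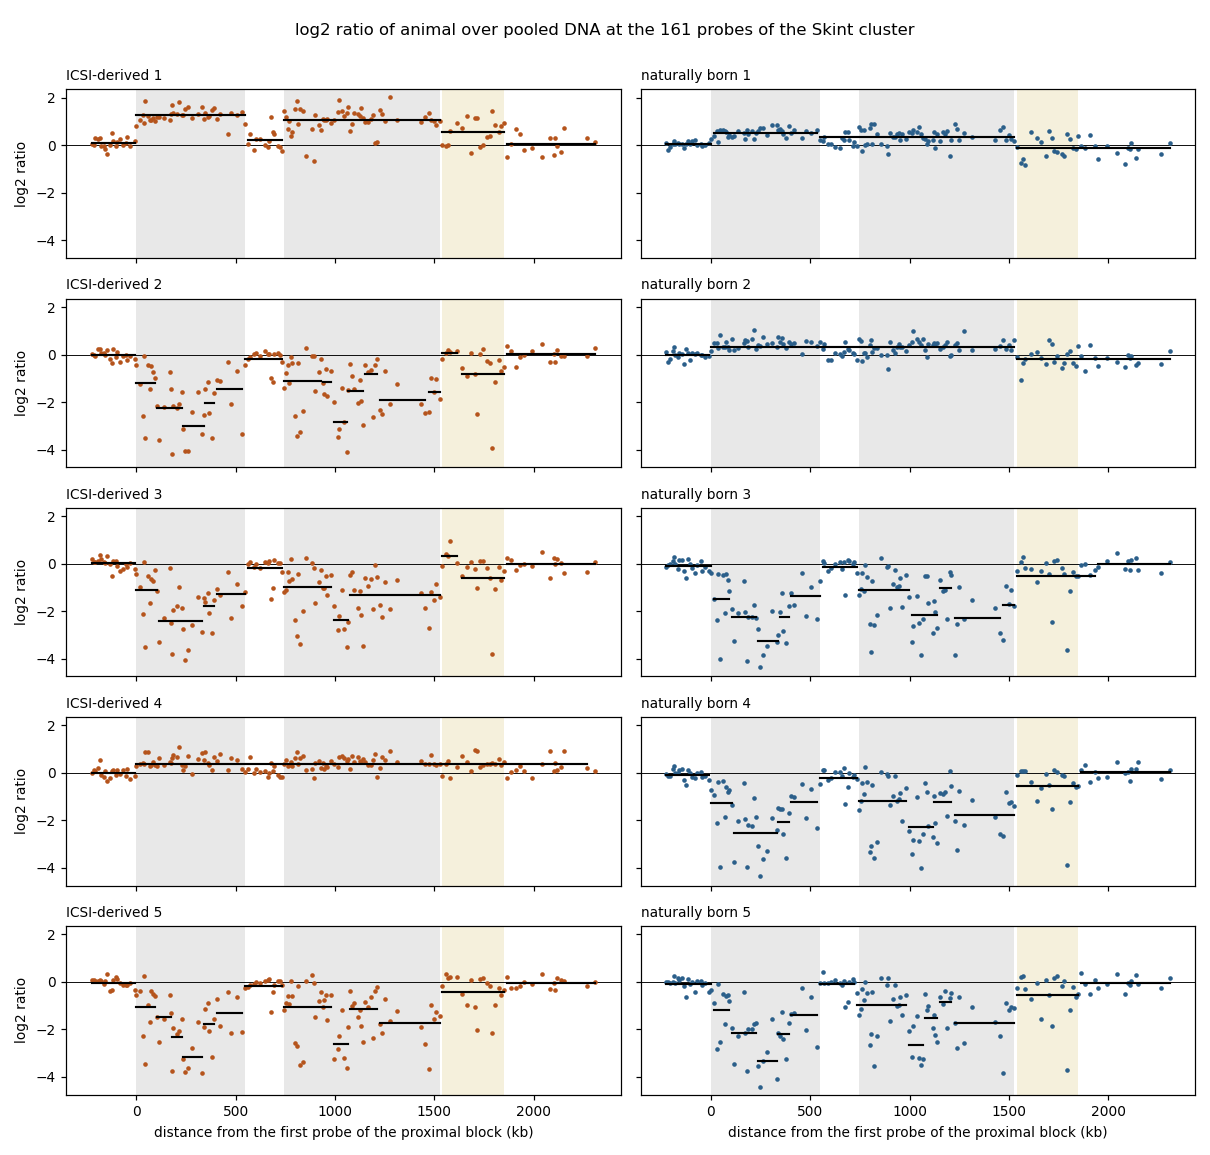
Each panel plots the log2 ratio of animal over pooled DNA (y axis) at the 161 probes against the distance in kb from the first probe of the proximal block (x axis), with ICSI-derived animals on the left and naturally born animals on the right. Points are probes, black lines are segment means, grey bands are the proximal and central blocks and the yellow band is the distal block. ICSI-derived replicate 1 stays near 1.26 in the proximal block, 3 animals lie between 0.46 and 0.53, and the other 6 scatter down to below -4.

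In the proximal block the mean log2 ratio was 1.26, -1.92, -1.73, 0.47 and -1.73 in ICSI-derived replicates 1 to 5, against 0.53, 0.46, -2.04, -1.85 and -1.89 in naturally born replicates 1 to 5. Replicate 1 of the ICSI-derived group stood alone at the top, and no value fell between -1.73 and 0.46. As geometric means over the 39 probes, the signal was 2.40 times that of the pool in ICSI-derived replicate 1. It was 1.39 times in ICSI-derived replicate 4 and 1.44 and 1.37 times in naturally born replicates 1 and 2. It was 0.24 to 0.30 times the pool in the other 6 animals, and 0.26 to 0.30 times without naturally born replicate 3. Many probes of these 6 were near background. The normexp background correction was used with an offset of 50 added to both channels, which by itself draws ratios towards 1. With it these 6 came to 0.722 to 0.845 times the pool. ICSI-derived replicate 1 then came to 1.78 times and the 3 middle animals to 1.09 to 1.17 times. The log2 step between ICSI-derived replicate 1 and the 3 animals below it was 0.74 to 0.81. For scale, the step on chromosome X between the 4 animals labelled female and the 5 other animals labelled male was 0.85.

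Across the central block the same order returned at slightly smaller distances from 0. The means were 1.07, -1.48, -1.34, 0.44 and -1.43 in ICSI-derived replicates 1 to 5, against 0.38, 0.32, -1.56, -1.55 and -1.43 in naturally born replicates 1 to 5. The upper 4 animals were the same as in the proximal block, and the gap between them and the other 6 was 1.65, beside 2.19 in the proximal block. Without naturally born replicate 3 the low animals ranged from -1.55 to -1.34 here and from -1.92 to -1.73 in the proximal block. Probe by probe, ICSI-derived replicate 1 lay above the 3 middle animals and these above the other 6 at 38 of 39 probes of the proximal block and at 48 of 54 of the central block. The order held at 4 of 20 probes of the proximal flank and at 1 of 15 of the distal flank. The 3 levels and the block limits were taken from these same values, so the counts describe the order and do not test it.

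The differences lay in the channel of the animals and not in that of the pool. Relative to each array's own median, the pool's Cy3 signal in the proximal block lay between -1.65 and -1.57 on all 10 arrays. The Cy5 signal was -0.33 in ICSI-derived replicate 1 and -1.10 in ICSI-derived replicate 4, against -1.08 and -1.19 in naturally born replicates 1 and 2. The other 6 animals had Cy5 values from -3.68 to -3.35.

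By label, the top animal was male, the middle level held 2 labelled males and 1 labelled female, and the lowest held 3 males and 3 females. Slide 1 carried all 3 levels, slide 2 the middle and lowest, and slide 3 the lowest only. Of the upper 4 animals only ICSI-derived replicate 4 was not on slide 1, and ICSI-derived replicate 2 was the only low animal on that slide. The 3 noisiest arrays were all among the upper 4, while naturally born replicate 1, on an array with a spread of 0.143, also read 0.53 in the proximal block. The parts of slide and array noise in the levels were not tested.

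**Figure D2:**
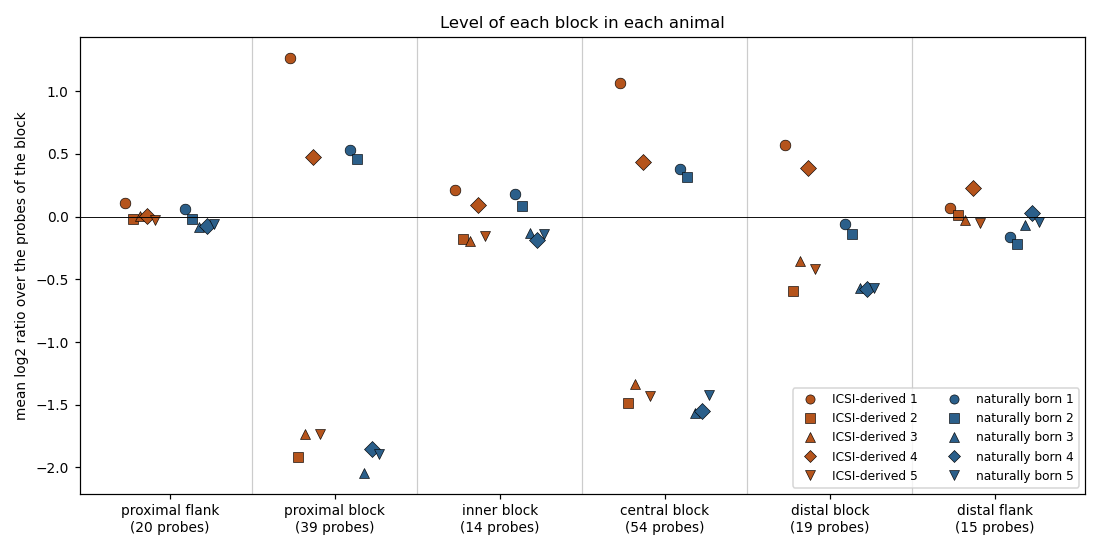
Mean log2 ratio (y axis) of each animal in each of the 6 blocks (x axis), with ICSI-derived animals in orange left of naturally born animals in blue and 1 marker shape per replicate number. The spread over animals is widest in the proximal block, from -2.04 to 1.26, and narrow in both flanks and in the inner block.

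The boundary at the proximal end was shared by every animal. In 7 animals, all 5 ICSI-derived ones and naturally born replicates 2 and 4, the level changed between the probes ending at 111718240 and starting at 111726014. In naturally born replicates 1, 3 and 5 it changed 1 probe further on, between 111726073 and 111742887. The probe between these boundaries (111726014 to 111726073) read 0.80 in ICSI-derived replicate 1 and 0.29 in ICSI-derived replicate 4, against 0.26 and 0.16 in naturally born replicates 1 and 2. It was between -0.71 and -0.33 in the other 6 animals, a smaller departure from 0 than their block means. The proximal flank beyond it lay between -0.025 and 0.11 in the ICSI-derived animals and between -0.081 and 0.059 in the naturally born animals. Within this flank the probe at 111601788 to 111601847 read 0.53 in ICSI-derived replicate 1 and -0.62 to -0.36 in the same 6 low animals, and it was singled out after its values were seen.

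Breakpoints numbered 5, 16, 11, 2 and 13 in ICSI-derived replicates 1 to 5, against 3, 2, 13, 11 and 13 in naturally born replicates 1 to 5. They fell at 27 places, 19 of them shared by at least 2 animals. A breakpoint is known only to the gap between neighbouring probes, which was 5.81 to 42.7 kb over the 27 places. The upper 4 animals had 2 to 5 breakpoints and the 6 low animals 11 to 16. The penalty for a breakpoint rose with an array's own spread between neighbouring probes. The 3 noisiest arrays were among the upper 4, so a step had to be larger there to be found. The part of this in the counts was not tested. The contrast between upper and low animals depended on the settings. With a penalty factor of 6, or with at least 10 probes a segment, the upper 4 had 2 to 5 and the low animals 8 to 10. When single probes were not drawn in, the upper 4 had 2 to 7 and the low animals 15 to 19. The contrast shrank most under 2 other settings. Without the probes not well above background on every array, the upper 4 had 2 to 4 and the low animals 5 or 6. With the normexp background correction and its offset, each low animal had 2. ICSI-derived replicates 1 and 4 then had 4 and 2, and naturally born replicates 1 and 2 had 1 and 0. Under normexp the start of the proximal block was still found in 6 animals and the end of the central block in 2.

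**Figure D3:**
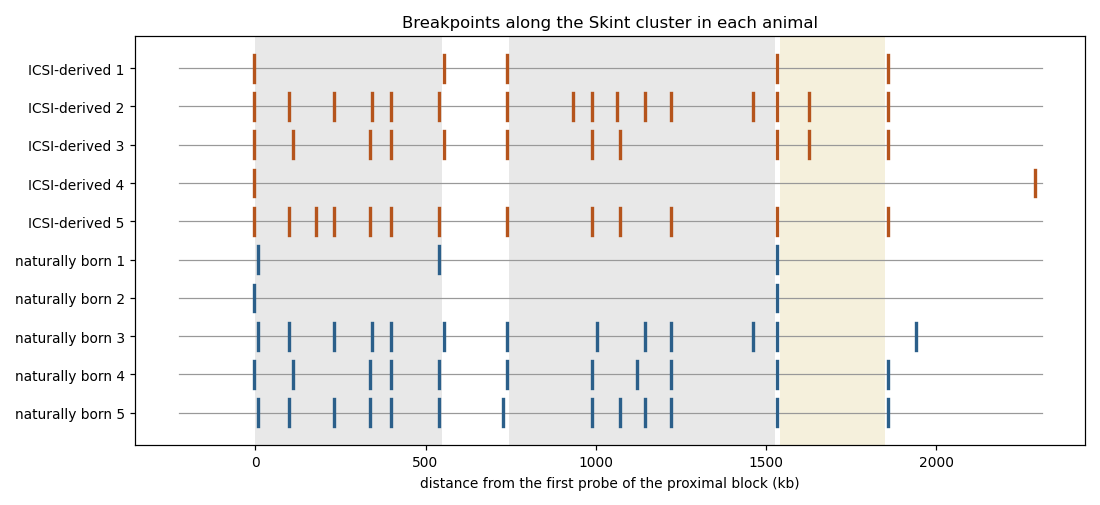
Vertical bars mark the breakpoints of each animal (rows, ICSI-derived above naturally born) along the distance in kb from the first probe of the proximal block (x axis), with the grey and yellow bands of the profile plot. All rows have a bar at the start of the proximal block, and the 6 low animals share further bars inside the grey bands.

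The distal end differed between animals. In 9 animals the level changed between 113251939 and 113266186, the end of the central block, the exception being ICSI-derived replicate 4. A further breakpoint between 113574763 and 113590673 was found in replicates 1, 2, 3 and 5 of the ICSI-derived group and in naturally born replicates 4 and 5. In naturally born replicate 3 the corresponding change came between 113658273 and 113676144, and without this array the outermost distal breakpoint of the 5 remaining low animals was at 1 place. After the start of the proximal block, ICSI-derived replicate 4 had no breakpoint until 113993176, in the distal flank. Its segment of 140 probes and 2267 kb began at 111726014. It ran through the proximal, inner, central and distal blocks and most of the distal flank. The segment mean was 0.39 with an SD of 0.28 between probes. Naturally born replicate 2 had 107 probes at 0.34 up to 113251939 and then -0.18. Naturally born replicate 1 had 37 probes at 0.54, then 69 probes at 0.34 up to the same place and then -0.11.

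The animals of the middle level thus parted in the distal block. The block mean was 0.57 in ICSI-derived replicate 1 and 0.39 in ICSI-derived replicate 4, against -0.061 and -0.14 in naturally born replicates 1 and 2. ICSI-derived replicates 2, 3 and 5 lay at -0.59, -0.36 and -0.42, against -0.57, -0.58 and -0.57 in naturally born replicates 3, 4 and 5. ICSI-derived replicate 4 was above both naturally born replicates 1 and 2 at 15 of 19 probes of the distal block and at 11 of 15 of the distal flank, beside 12 of 39 in the proximal block and 25 of 54 in the central block. In the distal flank its mean was 0.23, against -0.16 and -0.22 in naturally born replicates 1 and 2, while the 6 low animals had returned to between -0.068 and 0.029.

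A run of 3 probes in the distal block (113286238 to 113306356) set naturally born replicates 1 and 2 apart from all other animals. It averaged 0.20, 0.12, 0.56, 0.21 and 0.24 in ICSI-derived replicates 1 to 5, against -0.71, -0.53, 0.045, 0.077 and 0.046 in naturally born replicates 1 to 5. Averaged over these probes, the animals that were lowest in the proximal and central blocks stood above 0. The probes at 113518071 to 113531185 again had the cluster's usual order, with 1.14 in ICSI-derived replicate 1 and 0.39 in ICSI-derived replicate 4, against 0.39 and 0.095 in naturally born replicates 1 and 2, and -2.56 to -1.57 in the other 6. The distal block therefore mixed probes of both patterns, and the usual order held at 7 of its 19 probes. These runs were singled out after their values were seen.

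One flank probe showed yet another arrangement. At 113769036 to 113769095 ICSI-derived replicate 1 read -0.48, against -0.34 and -0.33 in naturally born replicates 1 and 2. ICSI-derived replicate 4 read 0.36 there and the 6 low animals between 0.33 and 0.49, so 3 of the upper 4 animals were the lowest at this probe, which was singled out after its values were seen.

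**Figure D4:**
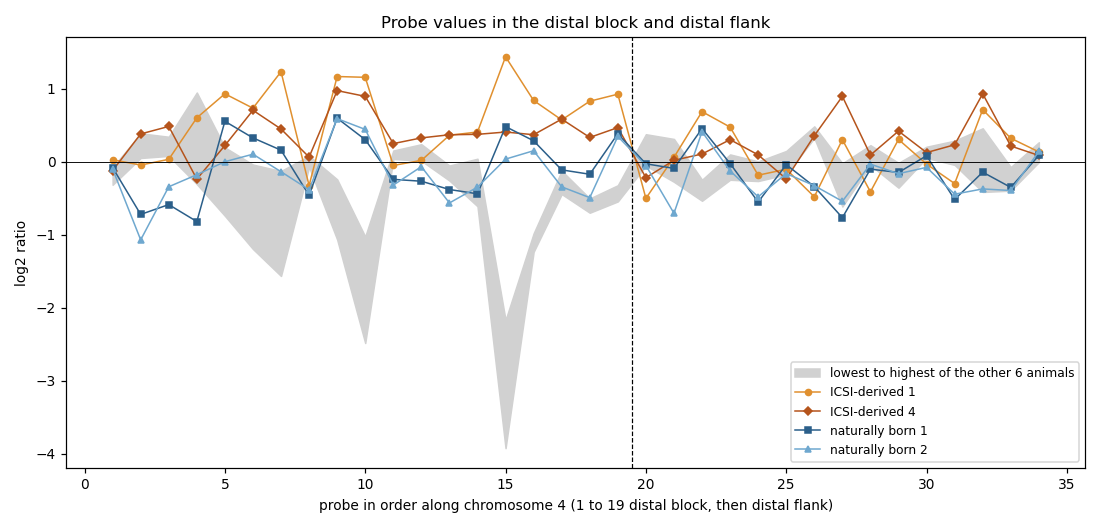
Log2 ratio (y axis) at the probes of the distal block and distal flank in their order along chromosome 4 (x axis), with lines for ICSI-derived replicates 1 and 4 and naturally born replicates 1 and 2 and a grey band from the lowest to the highest of the other 6 animals. The line of ICSI-derived replicate 4 lies above both naturally born lines at 15 of 19 probes left of the dashed line and at 11 of 15 right of it.

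Between the proximal and central blocks lay a stretch whose mean hardly differed between animals. Over the 8 probes from 112289418 to 112393977, a length of 105 kb, the mean was 0.13, -0.0098, -0.010, 0.11 and -0.026 in ICSI-derived replicates 1 to 5, against 0.12, 0.045, -0.058, -0.018 and 0.043 in naturally born replicates 1 to 5. A mean near that of the pool was thus found in animals that were far above and far below it on either side. Single probes varied more, with ranges over animals of 0.224 to 0.811. At the most variable of them, 112297090 to 112297149, the upper 4 animals read 0.37 to 0.67 and the other 6 -0.14 to 0.13. The next 2 probes (112402440 to 112414055) briefly returned to the usual order, with 0.88 in ICSI-derived replicate 1 and 0.24 in ICSI-derived replicate 4, against 0.57 and 0.38 in naturally born replicates 1 and 2, and -1.27 to -0.58 in the other 6. From 112440687 to 112460956 all animals again averaged between -0.17 and 0.035. These inner stretches were singled out after their values were seen.

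Breakpoints bounded the whole inner block, which holds these stretches and the 2 probes with the usual order, in most animals. The change at its start fell between 112260102 and 112273704 in replicates 2 and 5 of the ICSI-derived group and naturally born replicates 1, 4 and 5, and between 112273763 and 112289418 in replicates 1 and 3 of the ICSI-derived group and replicate 3 of the naturally born group. The change at its end fell between 112460956 and 112470276 in replicates 1, 2, 3 and 5 of the ICSI-derived group and naturally born replicates 3 and 4, and 1 probe earlier, between 112447221 and 112460897, in naturally born replicate 5. ICSI-derived replicate 4 and naturally born replicate 2, at the middle level, had no breakpoint at either end, and naturally born replicate 1 had none at the far end. The inner block mean of ICSI-derived replicate 4 was still 0.090, between 0.47 in the proximal and 0.44 in the central block. In naturally born replicate 2 it was 0.083, between 0.46 and 0.32. Both arrays were among the 3 noisiest, where a breakpoint carried a larger penalty.

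The 6 low animals shared a fine structure inside the blocks. Their values differed far more from probe to probe than those of the upper animals, with an SD between probes of 1.07 to 1.18 in the proximal block, against 0.18 to 0.27 in the upper 4. Yet the probes were high and low together in all 6, with Pearson correlations across the 39 probes of 0.91 to 0.96 for their 15 pairs. The correlations were 0.85 to 0.94 across the 54 probes of the central block and 0.81 to 0.97 across the 19 of the distal block. For the 10 pairs without naturally born replicate 3 they were 0.91 to 0.96, 0.89 to 0.94 and 0.81 to 0.95 in the 3 blocks. These correlations are over probes, which share their sequence and their brightness in the common pool, and are descriptions only. Against the same 6 animals the probes of ICSI-derived replicate 1 ran the other way, with correlations of -0.73 to -0.61 in the proximal block.

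Some probes of the proximal block moved little. The smallest range over animals was at 112185756 to 112185815, with 0.50, -0.32, -0.35, 0.14 and -0.44 in ICSI-derived replicates 1 to 5, against 0.30, 0.011, -0.39, -0.46 and -0.26 in naturally born replicates 1 to 5. The range was between 0.96 and 2.17 at the 8 least variable probes, which included those at 111764589, 111802675, 111810351, 111819115, 111893985 and 112273704 and the first probe of the block. At all of these except the probe starting at 111764589 the upper 4 animals still stood above the other 6.

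Other probes fell close to the limit of detection. The widest range was at 111972661 to 111972720, with 1.55, -4.08, -4.05, 0.29 and -3.81 in ICSI-derived replicates 1 to 5, against 0.74, 0.38, -4.36, -4.36 and -4.43 in naturally born replicates 1 to 5. The next widest were at 111771909, 111906561, 111987846 and 112058870, where the 6 low animals read between -4.18 and -2.40. In the proximal block 15 to 19 of the 39 probes of each low animal were not well above background in Cy5, and 17 to 21 of 54 in the central block. At such probes the log2 ratio is only a bound, and the size of the low level depends on it. The low animals averaged -1.37 to -1.07 in the proximal block without the probes not well above background on every array. With the normexp background correction, whose offset of 50 also draws log2 ratios towards 0, the low animals averaged -0.47 to -0.24. ICSI-derived replicate 1 then averaged 0.83 and the 3 middle animals 0.12 to 0.22. The order of the 3 levels was the same under both.

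The probe at 112785621 to 112785680 in the central block was spotted 5 times per array and gives the error within an array. It read 1.36 ± 0.12, -4.11 ± 0.29, -3.53 ± 0.51, 0.50 ± 0.15 and -3.62 ± 0.24 in ICSI-derived replicates 1 to 5 (SD, n = 5 spots). In naturally born replicates 1 to 5 it read 0.48 ± 0.058, 0.41 ± 0.12, -3.84 ± 0.47, -4.02 ± 0.17 and -3.49 ± 0.44 (SD, n = 5 spots). These SDs cover error within an array only, and the values near -4 are close to background.

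Steps inside the blocks recurred at the same places in the low animals. In all 6 the level changed between 112118262 and 112130091. Close by, changes fell between 112058929 and 112065352 in replicates 3 and 5 of the ICSI-derived group and naturally born replicates 4 and 5, and between 112065411 and 112073785 in ICSI-derived replicate 2 and naturally born replicate 3. Nearer the proximal end they fell between 111819174 and 111831196 in replicates 2 and 5 of the ICSI-derived group and naturally born replicates 3 and 5. In ICSI-derived replicate 3 and naturally born replicate 4 they fell 1 probe later, between 111831255 and 111841907. A change between 111953826 and 111962345 was shared by ICSI-derived replicates 2 and 5 and naturally born replicates 3 and 5, and the segments that followed it were the lowest of each of these animals. Those segments stood at -3.03 in ICSI-derived replicate 2 and -3.17 in ICSI-derived replicate 5, against -3.25 and -3.32 in naturally born replicates 3 and 5.

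A step in the central block between 112708148 and 112721499 was shared by replicates 2, 3 and 5 of the ICSI-derived group and replicates 4 and 5 of the naturally born group, and came 1 probe later, between 112721558 and 112738671, in naturally born replicate 3. The segments that followed it averaged -2.83, -2.38 and -2.61 in ICSI-derived replicates 2, 3 and 5, against -2.15, -2.30 and -2.64 in naturally born replicates 3, 4 and 5. Those segments ended between 112793116 and 112802573 in replicates 3 and 5 of the ICSI-derived group and replicate 5 of the naturally born group, and elsewhere in each of the other 3. Further steps fell between 112865838 and 112876762 in ICSI-derived replicate 2 and naturally born replicates 3 and 5, and between 112936959 and 112954401 in replicates 2 and 5 of the ICSI-derived group and naturally born replicates 3, 4 and 5. ICSI-derived replicate 2 and naturally born replicate 3 also shared a step between 113179575 and 113197461. In the distal block ICSI-derived replicates 2 and 3 shared one between 113338225 and 113364874. Since many probes here read near background in these animals, these are steps in array signal, and whether copy number changes there was not tested. In the proximal and central blocks the penalty came from the spread of the whole array, which was far below the SD between probes within the segments of the low animals. The low animals also shared their pattern from probe to probe, and shared steps were not told apart from that pattern.

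The comparison between the groups can say little about the cluster, which was chosen for its wide range over these same animals. That range also widens the spread within each group, so limma could hardly call its probes. With limma, fitted over 161460 autosomal probes with group and labelled sex in the model, 0 of the 161 cluster probes were called higher and 0 lower in ICSI-derived animals at a Benjamini-Hochberg adjusted p under 0.05. Over all autosomal probes 0.0155% were called higher and 0.00434% lower. At an unadjusted p under 0.05 limma picked 13 cluster probes as higher and 1 as lower, 14 of 161 in all, beside 3.27% of all autosomal probes. The smallest p was at 113676144 to 113676203 in the distal flank, where the log2 ratio was -0.18, -0.026, -0.030, 0.095 and 0.0057 in ICSI-derived replicates 1 to 5, against -0.55, -0.48, -0.16, -0.22 and -0.26 in naturally born replicates 1 to 5. The groups overlapped there, and limma gave a difference of 0.31 ± 0.07 (SE, unadjusted p = 0.00114, adjusted p = 1.0). At 0 cluster probes did every ICSI-derived animal lie above every naturally born one, and at 0 below, beside 0.264% and 0.246% of autosomal probes. With shares this small, 0 of 161 probes does not set the cluster apart, for these counts and for the limma calls alike. The median difference over the cluster probes was 0.18, beside 0.00 over all probes.

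Averaged over the 161 probes, the ICSI-derived animals had a level of -0.37 ± 0.86 and the naturally born ones of -0.55 ± 0.71 (SD, n = 5 each). The groups ranged from -1.05 to 0.77 and from -1.11 to 0.26, so the difference of 0.18 was well within the spread of either. In the proximal block alone the ICSI-derived mean was -0.73 ± 1.49 and the naturally born mean -0.96 ± 1.33 (SD, n = 5 each), a difference of 0.23. Leaving out ICSI-derived replicate 1 turned the sign of the cluster difference, to -0.10, and leaving out any other animal gave 0.0078 to 0.39. Without naturally born replicate 3, the array that stood apart on chromosome X, the cluster difference was 0.04 and that of the proximal block -0.038. The proximal block difference was also below 0 when replicate 1 (-0.27) or 4 (-0.068) of the ICSI-derived group or replicate 5 (-0.000212) of the naturally born group was left out. Within slide 1 the cluster difference was -0.36 and that of the proximal block -0.82. Within slide 2 they were 0.79 and 1.32, while slide 3 held 1 animal of each group. Within slide 2, with 2 arrays a group and 1 residual degree of freedom, limma called 9 cluster probes higher and 0 lower, beside 0.0737% higher and 0.0663% lower over all autosomal probes in that fit.

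Elsewhere on chromosome 4 other stretches ordered the animals in a similar way. Among runs of 10 autosomal probes outside the window with a range of 0.5 or more over animals, 37 separate places were compared with the proximal block by Pearson's r over the 10 animals. The median r was 0.15. These r values are given without a test, because the animals fall into separate levels and an r over them mostly restates those levels. The highest r, 0.999, was at 121394965 to 122269760, 7.34 Mb beyond the cluster. The run there averaged 0.76, -1.61, -1.50, 0.28 and -1.54 in ICSI-derived replicates 1 to 5, against 0.30, 0.14, -1.72, -1.62 and -1.62 in naturally born replicates 1 to 5. Among the 6 low animals alone r was 0.96 and Spearman's rho 0.71.

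The next places were at smaller amplitude. At 118262837 to 118358566 (r = 0.976) the upper 4 animals lay between 0.045 and 0.21 and the other 6 between -0.37 and -0.25. At 132924387 to 133037423 (r = 0.927) they lay between 0.18 and 0.34, and the other 6 between -0.19 and 0.018. The next place spanned 135853273 to 136450181, and its best run (r = 0.888) was at 136357852 to 136450181. In that run the upper 4 lay between 0.15 and 0.30 and the other 6 between -0.25 and 0.052. The first 4 places were all on chromosome 4, and the fifth, at 74844922 to 75173787 on chromosome 16, had an r of 0.690 and did not keep the upper 4 animals apart. Within the 6 low animals r was -0.50, 0.035 and 0.13 at the 3 lesser places on chromosome 4 and 0.44 at that on chromosome 16.

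**Figure D5:**
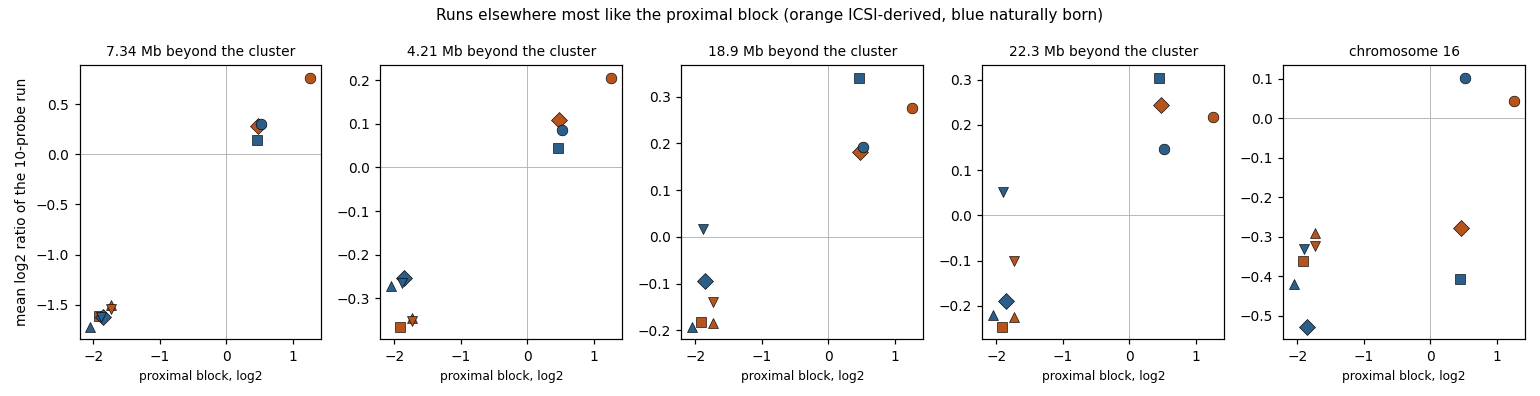
Mean log2 ratio of the 10-probe run most like the proximal block at each of 5 places (y axes, each with its own scale) against the mean log2 ratio of the proximal block (x axes), with 1 marker per animal, orange for ICSI-derived and blue for naturally born and the marker shapes of the block plot. At the 4 places on chromosome 4 the upper 4 animals lie above the other 6, and at the place on chromosome 16 they do not.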

How the data were processed

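Spot intensities were read from the deposited scanner files. Per the file headers, Feature Extraction 10.7.3.1 had subtracted the background from processed intensities and scaled the dyes linearly, and median spot and background intensities are uncorrected. The log10 ratios of the deposited value table equal those in the scanner files. The submitters' processing notes name Partek 6.5. Coordinates are on mm9, named in the headers of 6 arrays, and the other 4 carry the same probe positions.

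Control spots were dropped, spots of a probe averaged, and log2(Cy5/Cy3) centred on each array's autosomal median without loess. Each array was cut into constant means by optimal partitioning (penalty factor 3, at least 5 probes, single probes beyond 4 robust SD of 10 neighbours drawn in). Block limits are the breakpoints of ICSI-derived replicate 1. limma 3.58.1 (R 4.3.3, lmFit and eBayes, two-sided) tested all autosomal probes. Both steps were tested on simulated data, which for limma had independent noise at each probe. That limma test does not cover levels shared by neighbouring probes or probes near background, as in this cluster. Python 3.11.15, pandas 2.3.3, numba 0.67.0 and Biopython were used.

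The members, lists and settings were chosen with earlier results of these data known. Named probes are the window's ends, those beside breakpoints shared by at least 2 animals, the 8 least and 5 most variable probes of the proximal block and the 5 places most like it, and others are marked as chosen after their values were seen. Proteins were not used here. Alternatives covered centring, normexp (offset 50), loess, the value table, filters, slides, pairing, sex, array weights, segmentation settings and leaving out animals.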

Additional observations from a re-analysis of the deposited data

Results flagged for a closer look

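In the proximal flank ICSI-derived replicate 1 had a mean log2 ratio of 0.11, while -0.025 to 0.0083 covered the group's other 4, a gap of 0.756 of the group's range. It was picked out because it lay far from the rest of its group. Of 12 sets of 5 animals examined, 1 was picked out, and chance picks out about 1 in 20. The array has the second highest spread between neighbouring probes, and the part of that in the value was not tested.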

How the results depend on the processing

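No cluster probe was called by limma under the other centrings, normexp, loess, the value table, either filter, blocks for slide or replicate, array weights, a fit without sex, or without any 1 animal or the 3 noisiest arrays (lowest and highest counts 0). The exception was slide 2 alone, with 9 higher, beside 119 higher and 107 lower of 161460 probes in that fit. Same-numbered animals correlated at -0.28 to 0.15, and 0 of 5 correlated best with their own number. This gave no sign that numbers pair animals, though weak correlations cannot exclude a pairing. With the replicate block 0 probes were called higher and 0 lower, and the cluster difference was 0.18. Leaving out each animal moved that difference between -0.10 and 0.39, and that of the proximal block between -0.27 and 0.60. Without the 3 noisiest arrays the cluster difference was -0.25 (proximal block -0.48). Of 320 block levels under alternatives, 305 moved by less than the SD between animals of a group, but that SD holds the 3 levels themselves, so the count is no sign of stability. The cause of changed breakpoints was not tested. Counted to within 1 probe, the breakpoint at the start of the proximal block was found in 10 animals, and in 6 with normexp. That at its end was found in 8 animals, but in 0 with normexp and 3 without dim probes. That at the start of the central block was found in 7, but in 3 when single probes were not drawn in, 0 with normexp and 1 without dim probes. That at its end was found in 9, and in 2 with normexp. That at the end of the distal block was found in 6, but in 3 with a penalty factor of 6 and 0 without dim probes. The order of the 3 levels in the inner block was lost with normexp and with medians, and in the distal block with normexp, medians and without dim probes.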
